A study of Mus musculus with 39 samples.

Results

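The miR-30 and miR-26 families are described here in mouse embryonic stem cells (ESCs) that were left undifferentiated or were cultured toward definitive endoderm. The 7 members, mmu-miR-30a, mmu-miR-30b, mmu-miR-30c, mmu-miR-30d, mmu-miR-30e, mmu-miR-26a and mmu-miR-26b (written below without the species prefix), were taken by name from the 650 mouse miRNA rows of a 1-color Agilent miRNA microarray. Measured values were not part of this rule, but the choice was made with earlier results of these data known. There were 39 arrays in 13 groups of 3. The cells were of the mouse ESC line TCL-1, kept on mitomycin C-treated mouse embryonic fibroblast (MEF) feeders with LIF. The feeders were removed by a passage on gelatin and the cells were seeded on collagen. The differentiating groups received Activin A at 100 ng/ml, Wnt3a at 50 ng/ml, both at these doses (Activin A plus Wnt3a, also called the combination below), or the medium with no growth factor (control), for 1, 3 or 5 days. All of these groups, controls included, shared a medium that held B27 and sodium butyrate (so named in the labels, while a supplementary protocol spells the compound in a way that leaves it unclear), and the remaining group was the undifferentiated ESCs. The whole design therefore rests on a single cell line, and the labels do not say whether the 3 arrays of a group came from separate cultures, so p-values measure the spread between arrays only, which may be technical.

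A miRNA is a short RNA that is cut from a hairpin precursor and guides repression of messenger RNAs that pair with it, chiefly through its seed near the 5′ end. Members of a family share the seed and are therefore thought to share many targets. The miR-30 family is widely expressed in differentiated tissues and is known for repressing genes of the epithelial to mesenchymal transition, such as Snai1 and vimentin. The miR-26 family lies in introns of the Ctdsp phosphatase genes and is known for repressing Ezh2, the histone methyltransferase of Polycomb repressive complex 2. Activin A, a TGF-β family ligand that signals through Smad2 and Smad3, and Wnt3a, a ligand of the canonical Wnt pathway that stabilizes β-catenin, are the usual inducers of endoderm in ESC culture.

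Mature sequences of 5 of the 7 members were read from RefSeq (mouse build GRCm38.p6). They are shown with bases 2 to 8, the seed, in capitals, because the seed defines the families and because the bases outside it are what an array has to tell members apart.
miR-30a: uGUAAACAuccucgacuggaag
miR-30c: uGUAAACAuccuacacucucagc
miR-30e: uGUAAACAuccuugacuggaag
miR-26a: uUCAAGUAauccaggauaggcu
miR-26b: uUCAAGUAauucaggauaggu
The 3 miR-30 sequences carried the same seed, as did the 2 miR-26 sequences. With positions counted from 1 at the 5′ end, miR-30a and miR-30e differed at 1 of 22 positions (C13U, the base of miR-30a first), while miR-30a and miR-30c differed at 5 of 22 (C13A, G14C, G18C, G19U and A20C). miR-26a and miR-26b differed at 2 of the 21 positions they share (C11U and C21U). Signal that a probe may take from a near-identical member was not tested.

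miR-30a comes from 1 hairpin gene and occupies chr1:23272274-23272295 on the plus strand. miR-30c comes from Mir30c-2 (chr1:23291714-23291736, plus strand) and from Mir30c-1 (chr4:120769584-120769606, minus strand), so its level sums products of 2 genes. miR-30e lies at chr4:120772660-120772681 on the minus strand. The hairpins of Mir30c-1 and Mir30e were 2983 bases apart, both within Nfyc, which encodes a subunit of the transcription factor NF-Y. Mir30a and Mir30c-2 were 19361 bases apart on chromosome 1, with no gene listed across them. miR-26a comes from Mir26a-1 (chr9:119031811-119031832, plus strand) within Ctdspl and from Mir26a-2 (chr10:126995543-126995564, plus strand) within Ctdsp2, and miR-26b (chr1:74394324-74394344, plus strand) lies within Ctdsp1.

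Between 183 and 375 of the 650 miRNAs were detected per array (median 296), no spot was saturated, and 143 miRNAs were detected on all 39 arrays. The arrays lay on 5 slides scanned in 2 sessions. The ESC and day 1 arrays, and those of day 3 other than Activin A plus Wnt3a, were scanned in session 1, and all day 5 arrays and the Activin A plus Wnt3a day 3 arrays in session 2. Scan session therefore cannot be told apart from day in the comparisons of day 5 with ESC or, for the control, Wnt3a and Activin A arms, with day 3. The same holds for day 3 against day 1 in the Activin A plus Wnt3a arm. The labels put 3 arrays in every group, but Wnt3a day 5 replicate 1 stood apart from its group: over the 143 miRNAs its root mean square difference from the mean of its 2 group mates was 1.14 on the log2 scale, against 0.0769 to 0.348 for the same measure on the 36 arrays of other groups. Results for the members that rest on this array are mostly given with and without it. Those of the opposite strands of their hairpins are given only with it. In addition, 18 of the 39 columns of the processed value table matched the scanner output of another array, with Activin A and Activin A plus Wnt3a exchanged on each day. The scanner files are used here, so which of these 2 treatments is which rests on the labels of those files, and the sign of any difference between them turns with the columns as the value table names them.

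Marker miRNAs of other cell states moved with day and treatment. The summed normalized signal of 11 miR-290 cluster miRNAs, which mark undifferentiated mouse ESCs, was 35803 to 36363 in ESCs, 7912 to 8615 in the control at day 5, 11025 to 14432 with Wnt3a, 26502 to 29448 with Activin A and 31889 to 33981 with Activin A plus Wnt3a. In ESCs 9 of these 11 were detected on all 3 arrays, and miR-291b-3p was detected on no array of the series. A list of 7 miRNAs abundant in fibroblasts, which the feeders would carry, summed to 3195 to 3952 in ESCs, 3690 to 4103 over the day 1 groups, 826 to 1451 at day 3 and 771 to 1779 at day 5. Of these, miR-21 was detected on all 39 arrays, miR-143 on 16 and miR-145 on 2. A list of 6 neural miRNAs summed to 772 to 1002 in the control at day 5 and 738 to 1852 with Wnt3a, against 97.6 to 107 with Activin A and 53.8 to 57.6 with Activin A plus Wnt3a. Of 4 endodermal miRNAs, miR-192, miR-194 and miR-122 were detected on no array and miR-375 on 19, with a summed signal at day 5 of 0 in the control, 3.03 to 9.37 with Wnt3a, 47.0 to 50.1 with Activin A and 69.6 to 87.1 with Activin A plus Wnt3a. The part of such mixtures in the levels below was not tested, and in these bulk samples fewer cells of a type and less miRNA per cell cannot be told apart.

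Levels are given as log2 of the total gene signal, quantile normalized over the 39 arrays and raised to a floor of 2, so that an undetected value stands at 1.00. This signal is relative within an array, and levels are compared between groups for the same miRNA and not between miRNAs. Quantile normalization replaces each signal with the mean signal of its rank, and a miRNA with the same rank on several arrays therefore has an identical value on them. Of the 273 member values, 269 were detected. The 4 exceptions were all of miR-30d, on ESC replicates 1 and 2, control day 1 replicate 1 and Activin A day 1 replicate 1. All 7 members passed the filter on detection in every fit. In limma's moderated F-test among the 13 groups, with Benjamini-Hochberg adjustment over 373 miRNAs, all 7 members passed an adjusted p of 0.05, where 88.5% of the miRNAs tested did so. miR-30d lay nearest to the threshold (adjusted p = 0.0491).

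**Figure D1:**
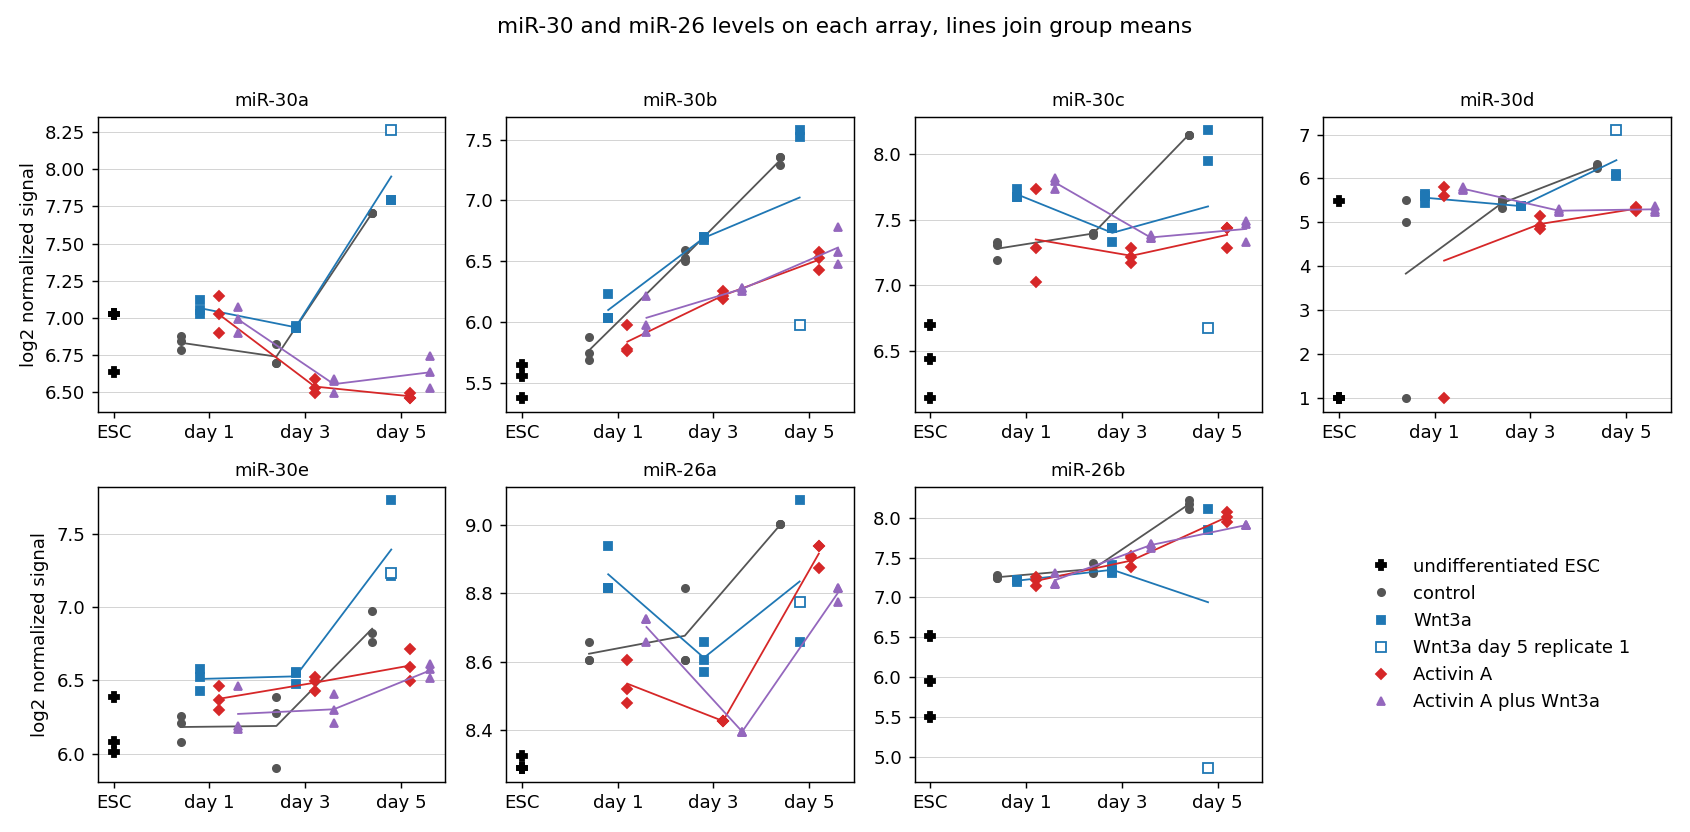
Normalized log2 level of each member (vertical axis, log2 of signal) on the 3 arrays of every group against culture day (horizontal axis, ESC at the left), with 1 panel per member, colors for the treatments and lines joining group means. The open square is Wnt3a day 5 replicate 1. In the miR-30a panel the control and Wnt3a arrays of day 5 sit between 7.70 and 8.26, above the Activin A and Activin A plus Wnt3a arrays, which sit between 6.46 and 6.74.

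The first question was how the families moved as ESCs were cultured without growth factor. By day 5 all 7 members were higher than in ESCs, and for 4 of them, miR-30b, miR-30c, miR-30d and miR-26b, the fitted difference exceeded 2-fold. That of miR-30d is not a measured fold, since it rests on undetected ESC arrays set at the floor. The background was high, since 70.8% of 373 miRNAs changed in this comparison, 47.5% were higher and 57.9% changed by more than 2-fold. The median log2 difference was 1.72 over the 7 members, 0.55 over all miRNAs tested and -0.02 over the 143 miRNAs detected on all arrays. The count was also 7 of 7 without Wnt3a day 5 replicate 1, where 74.1% of 370 miRNAs changed.

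miR-30b rose in steps. Its log2 level was 5.65, 5.55 and 5.37 on the ESC arrays, 5.87, 5.68 and 5.74 in the control at day 1, 6.59, 6.53 and 6.50 at day 3 and 7.36, 7.29 and 7.36 at day 5. The ranges did not overlap between any 2 of these stages. The log2 difference of day 5 from ESC was 1.81 (SE 0.22, limma adjusted p = 2.35e-08), and miR-30b was the only member that passed between days 1 and 3 (0.77, SE 0.22, adjusted p = 0.00276), where 63.5% of the miRNAs tested changed.

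miR-30c stood at 6.14, 6.44 and 6.70 in ESCs, at 7.31, 7.19 and 7.33 at day 1, at 7.40, 7.38 and 7.40 at day 3 and at 8.15 on all 3 arrays at day 5. It thus differed little between days 1 and 3 and was clearly higher on every array at each of the other steps. Its rise was 0.85 (SE 0.21, adjusted p = 0.00204) from ESC to day 1 and 0.75 (SE 0.21, adjusted p = 0.00403) from day 3 to day 5. From ESC to day 1, 30.3% of the miRNAs tested changed and 17.4% were higher. From day 3 to day 5, 41.6% changed and 20.6% were higher.

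miR-30a and miR-30e, which differ by 1 base, moved late with quantile normalization. For miR-30a the values were 7.03, 6.64 and 7.03 in ESCs, 6.78, 6.88 and 6.84 at day 1, 6.82, 6.70 and 6.70 at day 3 and 7.70 on all 3 arrays at day 5. miR-30e stood at 6.01, 6.08 and 6.39 in ESCs, 6.21, 6.26 and 6.08 at day 1, 6.28, 6.39 and 5.90 at day 3, and 6.97, 6.76 and 6.82 at day 5. In both cases the ESC, day 1 and day 3 arrays lay close together and the day 5 arrays lay above all of them. The rise from day 3 to day 5 was 0.96 (SE 0.10, adjusted p = 2.11e-09) for miR-30a and 0.67 (SE 0.12, adjusted p = 3.78e-05) for miR-30e.

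miR-30d was close to its limit of detection early on. Its values were 1.00, 1.00 and 5.48 in ESCs, where 1 of 3 arrays detected it, 1.00, 5.50 and 5.00 at day 1, 5.53, 5.46 and 5.32 at day 3 and 6.32, 6.28 and 6.23 at day 5. All day 5 arrays lay above all earlier arrays. Its log2 difference of day 5 from ESC (3.78, SE 1.01, adjusted p = 0.00147) is set largely by the undetected arrays at the floor and is not a measured fold. The day 5 difference from day 3 was 0.84 (SE 1.01, adjusted p = 0.61) in this fit, whose spread for miR-30d includes those undetected arrays.

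Both miR-26 members were higher in the control from day 1 on. miR-26a stood at 8.29, 8.32 and 8.29 in ESCs, 8.61, 8.61 and 8.66 at day 1, 8.61, 8.61 and 8.82 at day 3 and 9.00 on all 3 arrays at day 5. These are small steps, 0.32 (SE 0.07, adjusted p = 0.000258) from ESC to day 1 and 0.33 (SE 0.07, adjusted p = 0.000155) from day 3 to day 5. Between days 1 and 3 the difference was 0.05 and did not pass. miR-26b moved further, from 5.50, 6.52 and 5.95 in ESCs to 7.24, 7.29 and 7.24 at day 1, 7.33, 7.31 and 7.43 at day 3 and 8.11, 8.22 and 8.18 at day 5. Its rise was 1.27 (SE 0.42, adjusted p = 0.0204) to day 1. The difference of 0.81 (SE 0.42) between days 3 and 5 did not pass with all arrays (adjusted p = 0.138) and passed without Wnt3a day 5 replicate 1 (adjusted p = 3.53e-06), which raised the count of members changed from 5 to 6, with 50.3% of 370 miRNAs changed.

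The same members were then followed from ESC to Activin A plus Wnt3a at day 5, the condition meant to yield definitive endoderm. All 7 passed, where 63% of the miRNAs tested did (68.1% of 370 without Wnt3a day 5 replicate 1, and again all 7), but not all in the same direction. miR-30a was lower than in ESCs (log2 difference -0.26, SE 0.10, adjusted p = 0.0192), and the other 6 were higher, with differences of 1.09 for miR-30b, 1.00 for miR-30c, 2.81 for miR-30d, 0.41 for miR-30e, 0.50 for miR-26a and 1.92 for miR-26b. The miR-30a difference was -0.05 (adjusted p = 0.699) when arrays were scaled to the 75th percentile of the miRNAs detected on all of them. With scaling to the 75th percentile of all miRNAs, miR-30e (0.24, adjusted p = 0.157) and miR-26a (0.11, adjusted p = 0.515) no longer passed. The value of miR-30d again rests on undetected ESC arrays, and it became -0.03 when the mean spot signals were background corrected by normexp instead. These comparisons share the ESC arrays with those of the control course.

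Over the 13 group means, the spread from the lowest to the highest group was 2.78-fold for miR-30a, 3.50-fold for miR-30b, 3.29-fold for miR-30c, 15.2-fold for miR-30d with its undetected arrays at the floor, 2.36-fold for miR-30e, 1.63-fold for miR-26a and 4.54-fold for miR-26b. The highest group was Wnt3a day 5 for miR-30a, miR-30d and miR-30e, and control day 5 for miR-30b, miR-30c, miR-26a and miR-26b. Without Wnt3a day 5 replicate 1, which was chosen after seeing the data, the first 2 places were exchanged for 2 members. Control day 5 (mean 6.28) then lay above Wnt3a day 5 (6.08) for miR-30d, and Wnt3a day 5 (7.55) above control day 5 (7.33) for miR-30b. ESC was the lowest group for every member except miR-30a, for which Activin A day 5 was lowest. When the groups were put in order, 6 to 9 of the 12 neighboring pairs of each member differed by less than their spread.

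Time was also compared within the growth factor arms. miR-30a fell from day 1 to day 3 with Activin A (log2 difference -0.48, SE 0.10, adjusted p = 6.95e-05, where 58.2% of miRNAs changed) and with Activin A plus Wnt3a (-0.43, where 57.4% changed). In the Activin A plus Wnt3a arm these days were scanned in different sessions, which cannot be told apart from day. Between days 3 and 5 miR-30a rose by 0.96 in the control and by 1.01 with Wnt3a, while its difference was -0.07 (adjusted p = 0.894) with Activin A and 0.08 (adjusted p = 0.827) with Activin A plus Wnt3a. miR-26a was the only member that passed from day 3 to day 5 in these last 2 arms, with 0.49 (adjusted p = 1.96e-06) for Activin A, where 15.5% of the miRNAs tested changed, and 0.41 for Activin A plus Wnt3a, where 13.9% did. Without Wnt3a day 5 replicate 1, miR-30b rose as well in both of these arms (0.29, adjusted p = 0.00555, and 0.34, adjusted p = 0.00171), and miR-26b with Activin A (0.55, adjusted p = 0.00145), against 27.3% and 24.1% of 370 miRNAs changed. From day 1 to day 3 with Wnt3a, miR-30b rose (0.59) and miR-26a fell (-0.24), where 59.5% changed. In the Wnt3a arm miR-30a, miR-30e (0.87) and miR-26a (0.22) rose from day 3 to day 5, where 44% changed. Without that array miR-30b (0.86), miR-30c (0.66) and miR-26b (0.63, adjusted p = 0.000467) rose too, with 44.6% of 370 miRNAs changed, and the sign of miR-26b turned from -0.41.

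The second question was how Activin A, Wnt3a and their combination changed the families against the control of the same day. At day 5 the 2 Activin A conditions held miR-30a and miR-30d at close to 2-fold below the control. The values of all 7 members in the Activin A arrays, and in the Activin A plus Wnt3a arrays, did not overlap those of the control. How many of all miRNAs tested separated in this way was not counted. Arrays with identical or nearly identical normalized values separate even at small differences. The number of members that passed was 2 of 7 for Activin A, where 37.5% of 368 miRNAs changed and 19.3% were lower, and 2 of 7 for Activin A plus Wnt3a, where 46.2% changed and 24.7% were lower. Wnt3a changed 1 of 7, where 8.15% changed.

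miR-30a stood at 7.70 on all 3 control arrays of day 5 and at 8.26, 7.80 and 7.80 with Wnt3a. It stood at 6.46, 6.50 and 6.46 with Activin A and at 6.53, 6.64 and 6.74 with Activin A plus Wnt3a. The arrays with Activin A thus lay about 1 log2 unit below both groups without it. The log2 difference from the control was -1.23 (SE 0.12, 2.35-fold lower, adjusted p = 3.09e-05) for Activin A and -1.07 (SE 0.12, 2.10-fold lower, adjusted p = 6.55e-05) for the combination. Both calls held under all 13 alternative settings and in all 12 omissions of an array.

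miR-30d stood at 6.32, 6.28 and 6.23 in the control, at 5.26, 5.35 and 5.32 with Activin A and at 5.24, 5.29 and 5.37 with Activin A plus Wnt3a. Wnt3a arrays read 7.10, 6.10 and 6.05, with replicate 1 above and the others below the control. The difference was -0.97 (SE 0.23, 1.95-fold lower, adjusted p = 0.00991) for Activin A and -0.98 (SE 0.23, 1.97-fold lower, adjusted p = 0.00753) for the combination. With the slide as a block, the combination no longer passed for miR-30d (-0.99, adjusted p = 0.164). In 1 fit of all arrays, whose spread for miR-30d includes the undetected arrays of ESC and day 1, neither difference passed (adjusted p = 0.544 for Activin A and 0.514 for the combination).

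miR-30b and miR-30c showed differences nearly as large that did not pass. miR-30b read 7.36, 7.29 and 7.36 in the control, 6.53, 6.58 and 6.43 with Activin A and 6.48, 6.58 and 6.78 with the combination. miR-30c read 8.15 on all 3 control arrays, 7.43, 7.43 and 7.29 with Activin A and 7.33, 7.49 and 7.46 with the combination. The gaps between these groups exceeded the spread within them. The Wnt3a group shares the fit and its estimate of the spread, and there replicate 1 read 5.97 against 7.58 and 7.52 for miR-30b and 6.68 against 7.94 and 8.18 for miR-30c. For miR-30b the differences were -0.82 (SE 0.36, adjusted p = 0.11) and -0.72 (adjusted p = 0.141), and for miR-30c -0.76 (SE 0.32, adjusted p = 0.095) and -0.72 (adjusted p = 0.099).

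Without Wnt3a day 5 replicate 1, 4 members were lower with Activin A (miR-30a, miR-30b, miR-30c and miR-30d) and 5 with the combination, where 61.7% and 68.6% of 363 miRNAs changed in either direction. The share of miRNAs that were lower was not counted without this array. The SE of miR-30b then fell to 0.08, with adjusted p = 3.03e-05 for Activin A and 5.45e-05 for the combination. For miR-30c the adjusted p was 3.08e-05 and 3.48e-05. The fifth member was miR-26b, at -0.26 with the combination (adjusted p = 0.00806). This array also differed from its group mates by -3.12 for miR-26b, -1.58 for miR-30b, -1.39 for miR-30c, 1.02 for miR-30d and 0.47 for miR-30a, and by -0.24 and -0.09 for miR-30e and miR-26a. It detected 330 miRNAs against 375 and 352 on its group mates. Its signal before normalization lay below those of both group mates for 6 of the 7 members and between them for miR-30d, with 371 against 873 and 742 for miR-26a. The part of this in the results was not tested.

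miR-30e was the member that passed for Wnt3a. It read 6.97, 6.76 and 6.82 in the control at day 5 and 7.24, 7.73 and 7.22 with Wnt3a, with no overlap. The difference was 0.54 (SE 0.13, adjusted p = 0.04), and 0.62 (adjusted p = 0.0122) without replicate 1, where 35.8% of 363 miRNAs changed. The call lies at the edge of the threshold, and the count of members changed by Wnt3a ranged from 0 to 2 as arrays were left out. Without replicate 1, miR-30d also passed, at -0.20 (adjusted p = 0.0163) instead of 0.14. With Activin A miR-30e read 6.59, 6.72 and 6.50, and with the combination 6.52, 6.61 and 6.58, for differences of -0.25 (adjusted p = 0.184) and -0.29 (adjusted p = 0.114).

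The miR-26 family showed little at day 5. miR-26a read 9.00 on all control arrays, 8.94, 8.94 and 8.87 with Activin A and 8.78, 8.82 and 8.82 with the combination. miR-26b read 8.11, 8.22 and 8.18 in the control, 8.07, 8.01 and 7.94 with Activin A and 7.91 on all 3 arrays of the combination. All of these differences were under 0.30 on the log2 scale, with -0.09 (adjusted p = 0.544) and -0.20 (adjusted p = 0.108) for miR-26a, and -0.16 (adjusted p = 0.959) and -0.26 (adjusted p = 0.84) for miR-26b. The spread behind these tests of miR-26b includes Wnt3a day 5 replicate 1, which read 4.86 against 7.85 and 8.11. With Wnt3a miR-26b differed from the control by -1.23, which did not pass in the fit of day 5. It passed in 1 fit of all arrays (adjusted p = 0.0356). Without replicate 1 this difference was -0.19 (adjusted p = 0.0834). The median difference over the 7 members was -0.76 for Activin A and -0.72 for the combination, beside -0.03 and 0 over all miRNAs tested.

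Control and Activin A arrays of day 5 shared slide 5, with 3 and 2 arrays. Within it the difference was -1.22 for miR-30a, -0.78 for miR-30b, -0.71 for miR-30c, -0.97 for miR-30d, -0.20 for miR-30e, -0.06 for miR-26a and -0.13 for miR-26b. None of the 7 ranges overlapped, and the share of all miRNAs without overlap was not counted here either. The Activin A plus Wnt3a and Wnt3a arrays of day 5 lay on slide 4, which they shared with 1 Activin A array and no control.

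**Figure D2:**
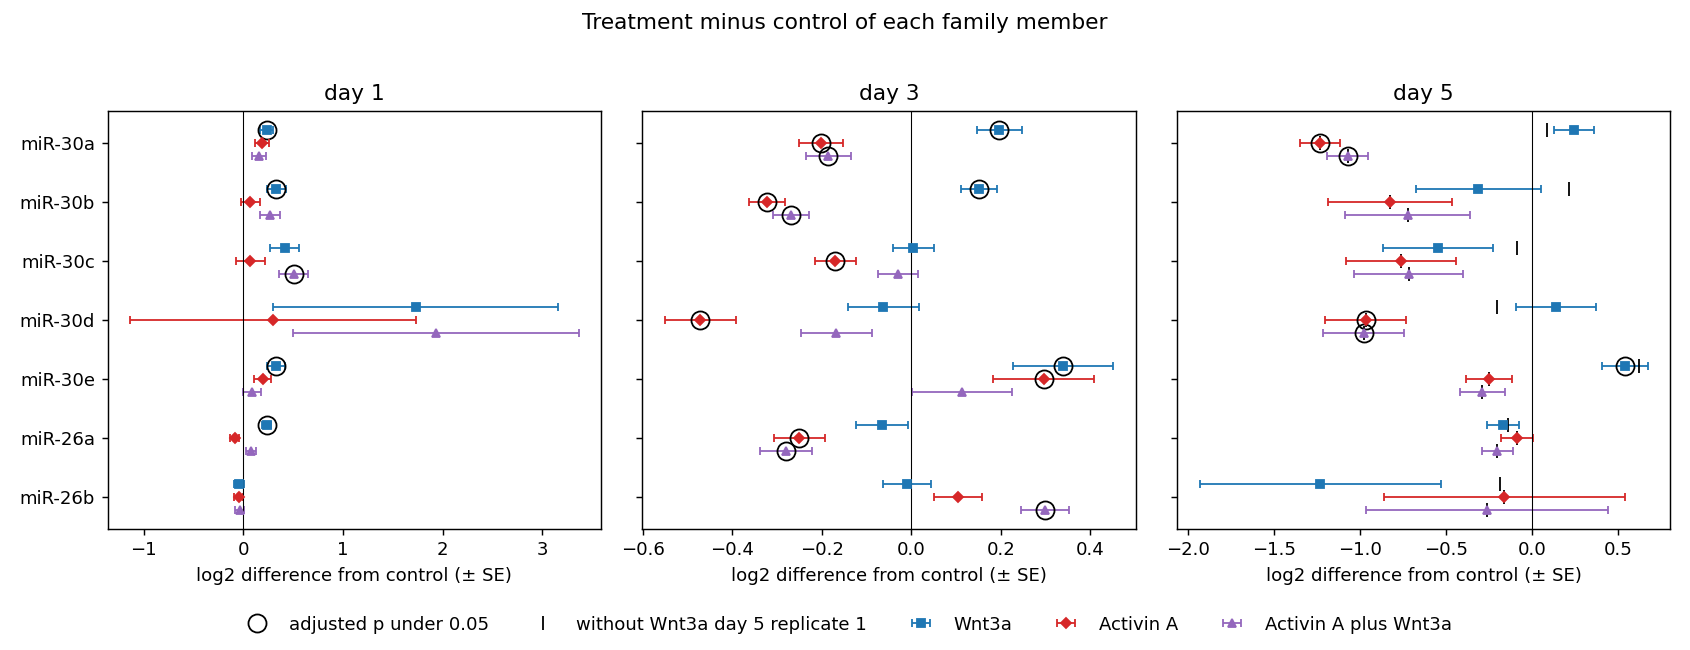
Log2 difference from the control of the same day (horizontal axis, with a scale of its own in each panel) for the 7 members at days 1, 3 and 5, with bars of 1 SE and circles around points with an adjusted p under 0.05. Ticks in the day 5 panel mark the differences without Wnt3a day 5 replicate 1. At day 5 the Activin A points of miR-30a (-1.23) and miR-30d (-0.97) lie left of 0 and are circled, and those of miR-26a and miR-26b lie near 0.

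The treatments were compared with the control in the same way at day 3. Activin A changed 6 of 7 members, where 56.4% of 326 miRNAs changed and 31% were lower. Of the members, 5 were lower and miR-30e was higher, and none of these differences was over 2-fold, where 19% of the miRNAs passed at over 2-fold. The combination changed 4 of 7 (59.5% of miRNAs changed, 32.5% lower), and Wnt3a 3 of 7 (35% changed). In 1 fit of all arrays, miR-26a alone kept its call for Activin A (adjusted p = 0.00431) and for the combination (adjusted p = 0.00122), and no member passed for Wnt3a.

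With Activin A at day 3, miR-30d read 4.91, 5.14 and 4.84 against 5.53, 5.46 and 5.32 in the control. miR-30b read 6.21, 6.26 and 6.19 against 6.59, 6.53 and 6.50. Neither pair of groups overlapped. The differences were -0.47 (SE 0.08, adjusted p = 0.00072) for miR-30d and -0.32 (SE 0.04, adjusted p = 8.97e-05) for miR-30b. Smaller decreases were measured for miR-26a (-0.25, adjusted p = 0.00485), miR-30a (-0.20, adjusted p = 0.00673) and miR-30c (-0.17, adjusted p = 0.00957). miR-30e read 6.43, 6.50 and 6.53 against 6.28, 6.39 and 5.90, a difference of 0.30 (SE 0.11, adjusted p = 0.0479) in which the third control array stood low. With the slide as a block it no longer passed (0.34, adjusted p = 0.0529). On slide 2, which held these 3 Activin A arrays and 2 of the controls, the differences were -0.43 for miR-30d, -0.30 for miR-30b, -0.28 for miR-26a, -0.16 for miR-30a, -0.17 for miR-30c and 0.34 for miR-30e.

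With the combination at day 3, miR-30b (-0.27, adjusted p = 0.000244), miR-26a (-0.28, adjusted p = 0.00208) and miR-30a (-0.18, adjusted p = 0.00927) were lower and miR-26b was higher (0.30, adjusted p = 0.000831). miR-26b read 7.67, 7.63 and 7.67 with the combination, 7.52, 7.38 and 7.49 with Activin A and 7.33, 7.31 and 7.43 in the control. The 2 miR-26 members, which share a seed, thus lay on opposite sides of the control here. The Activin A plus Wnt3a arrays of day 3 lay on a slide that held no other day 3 array, so slide and scan session cannot be told apart from the combination at that day.

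Wnt3a at day 3 raised miR-30e (0.34, adjusted p = 0.0421), miR-30a (0.20, adjusted p = 0.014) and miR-30b (0.15, adjusted p = 0.0163), the last of which was -0.0039 when arrays were scaled to the 75th percentile of all miRNAs. miR-30a read 6.93, 6.93 and 6.95 against 6.82, 6.70 and 6.70 in the control, and the groups did not overlap. Within slide 2 the 3 differences were 0.38, 0.24 and 0.18. With the slide as a block the miR-30e difference was 0.38 and just missed the threshold (adjusted p = 0.05 after rounding). The count fell from 3 to 1 without Wnt3a day 3 replicate 2.

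Day 1 was the earliest time with treatments. In the F-test among the treatments of day 1, 1 of 7 members passed, miR-26a (adjusted p = 0.00803), where 24.2% of 240 miRNAs did. The count was 3 without Activin A day 1 replicate 3, and 2 without Activin A day 1 replicate 1 or Activin A plus Wnt3a day 1 replicate 3. The corresponding counts were 6 of 7 at day 3, where 70.2% of 326 passed, and 3 of 7 at day 5 (miR-30a, miR-30d and miR-30e), where 46.5% of 368 passed, or 6 of 7 and 72.5% of 363 without Wnt3a day 5 replicate 1.

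Against the control of day 1, Wnt3a raised miR-30b (0.33, SE 0.10, adjusted p = 0.0446), miR-30e (0.33, SE 0.09, adjusted p = 0.0324) and miR-26a (0.23, SE 0.05, adjusted p = 0.0105), with 20% of 240 miRNAs changed and 10% higher. miR-30a also passed (0.23, adjusted p = 0.0439), but its difference was -0.10 under both scalings to the 75th percentile. With the slide as a block none of these 4 calls held, with differences of 0.13 for miR-30b (adjusted p = 0.834), 0.20 for miR-30e (0.657), 0.13 for miR-26a (0.605) and 0.05 for miR-30a (0.932). miR-26a read 8.82, 8.94 and 8.82 with Wnt3a against 8.61, 8.61 and 8.66 in the control. The combination raised miR-30c, which read 7.82, 7.73 and 7.80 against 7.31, 7.19 and 7.33 (0.50, SE 0.15, adjusted p = 0.0364), where 25% of miRNAs changed, and this became -0.07 with the slide as a block. No member passed for Activin A, where 3.33% did, and 1 of 7 had an unadjusted p under 0.05. The Wnt3a and combination arrays of day 1 shared no slide with the control, to which they were linked only through the Activin A arrays.

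Whether a treatment effect differed between days 3 and 5 was tested directly. Of 21 such differences, 3 passed. The effect of Activin A on miR-30a was -0.20 at day 3 and -1.23 at day 5, and the difference between them was -1.03 (SE 0.14, adjusted p = 1.06e-06). For the combination it was -0.89 (SE 0.14, adjusted p = 8.99e-06). The effect of Activin A on miR-30e went from 0.30 to -0.25, a difference of -0.55 (SE 0.17, adjusted p = 0.0198), which no longer passed in 3 of 39 omissions of an array. The background was 20.9% of 373 miRNAs for Activin A, 28.4% for the combination and 4.83% for Wnt3a, for which no member passed at an adjusted or an unadjusted p of 0.05. Without Wnt3a day 5 replicate 3 the count was 7 of 21, and without replicate 1 it was 8, with 31.1%, 38.9% and 8.92% of 370 miRNAs changed for Activin A, the combination and Wnt3a. The 5 added without replicate 1 were miR-30b and miR-30c for Activin A (-0.50 and -0.59) and miR-30b, miR-30c and miR-26b for the combination (-0.45, -0.69 and -0.56).

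A further question was what Wnt3a added to Activin A. At day 5 no member differed between the combination and Activin A, where 4.89% of 368 miRNAs did, and no member had an unadjusted p under 0.05. The intervals show what this leaves room for. The 95% interval of the log2 difference was -0.11 to 0.43 for miR-30a, -0.54 to 0.52 for miR-30d, -0.34 to 0.27 for miR-30e and -0.32 to 0.09 for miR-26a, and it was wider for miR-30b (-0.72 to 0.92), miR-30c (-0.68 to 0.77) and miR-26b (-1.69 to 1.49). No member passed either without Wnt3a day 5 replicate 1, where 19.6% of 363 miRNAs did. The intervals were then narrower for 6 members and about as wide for miR-26a, with 0.05 to 0.27 for miR-30a (adjusted p = 0.0539), -0.08 to 0.28 for miR-30b, -0.12 to 0.21 for miR-30c, -0.11 to 0.09 for miR-30d, -0.33 to 0.26 for miR-30e, -0.32 to 0.09 for miR-26a and -0.26 to 0.05 for miR-26b.

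At day 3 the combination lay above Activin A for miR-30d (0.30, adjusted p = 0.0181), miR-26b (0.19, adjusted p = 0.0242) and miR-30c (0.14, adjusted p = 0.0449), 3 of 7 where 29.4% of 326 miRNAs changed. miR-30d read 5.24, 5.30 and 5.26 with the combination against 4.91, 5.14 and 4.84. With the columns of the value table as named, the 3 differences were -0.44, -0.17 and -0.12, since the 2 treatments change places there, and miR-30c was also -0.05 when arrays were scaled to the 75th percentile of all miRNAs. The count was 1 when any of 4 arrays of day 3 was left out, which were Activin A replicates 1 and 3 and Activin A plus Wnt3a replicates 2 and 3. At day 1 no member passed, where 10.4% did, with 2 of 7 at an unadjusted p under 0.05.

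Whether the 2 factors acted other than additively on the log2 scale was tested as their interaction. At day 3 it passed for miR-30d (0.37, SE 0.11, adjusted p = 0.0442) and miR-30e (-0.52, SE 0.16, adjusted p = 0.0437), 2 of 7 where 22.7% of 326 miRNAs passed. Both calls lie near the threshold, and they held in 2 and 3 of 12 omissions of an array. Neither passed in 1 fit of all arrays (adjusted p = 1 for miR-30d and 0.0644 for miR-30e). For miR-30d, Wnt3a alone left the level near the control (5.37 on all 3 arrays) and Activin A alone lowered it by more than the combination did. For miR-30e each factor alone gave a higher level, at 0.34 and 0.30, while the combination differed from the control by 0.11. At days 1 and 5 no member passed the interaction test, where 0% and 3.26% did. At an unadjusted p under 0.05 the counts were 2 of 7 and 1 of 7.

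The opposite strands of the same hairpins give a second reading of miR-30a and miR-30e. They are shown because they differ from the guide strands in sequence and have probes of their own, with bases 2 to 8 again in capitals. miR-30a* and miR-30e* are nearly identical to each other, and signal that a probe may take from the other was not tested.
miR-30a*: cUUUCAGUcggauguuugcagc
miR-30e*: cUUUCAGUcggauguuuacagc
miR-30a* lies at chr1:23272315-23272336 (plus strand) and miR-30e* at chr4:120772618-120772639 (minus strand). miR-30a* was detected on 16 of 39 arrays and miR-30e* on 36. At day 5 miR-30a* read 4.31, 4.26 and 4.35 in the control, 4.60, 4.07 and 4.19 with Wnt3a, 1.50, 1.50 and 1.66 with Activin A and 2.34, 1.00 and 2.21 with the combination, on which replicate 2 did not detect it. It was thus lower in both Activin A conditions, by -2.75 (SE 0.31, adjusted p = 8.67e-05) and -2.46 (adjusted p = 0.000145), as was miR-30a. The values with Activin A lie close to the floor, and the -2.46 includes an undetected array set at it. Before normalization the miR-30a* signal was 33.2, 33.0 and 34.3 in the control and 9.31, 8.45 and 8.06 with Activin A, a smaller fold than the normalized one.

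miR-30a* was not detected in ESCs, at day 1 or with Activin A at day 3, was detected on 1 of 3 control arrays at day 3 (2.67) and rose in the control from day 3 to day 5 (2.75, adjusted p = 1.07e-08). With Wnt3a it was detected on all 3 arrays of day 3 (2.80, 3.18 and 2.86), which is 1.39 above the control (adjusted p = 0.0254). These values lie close to the floor, and undetected arrays stand at it. With Activin A the difference between days 3 and 5 was 0.55 (adjusted p = 0.268), and with the combination it was 0.63 (adjusted p = 0.189).

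miR-30e* was undetected on all 3 ESC arrays and stood near 5.23 in the control at day 1, at least 1.49-fold above the mean of the lowest log2 signals detected on the ESC arrays. These limits were 4.89, 5.10 and 3.99. At day 5 it read 5.30, 5.32 and 5.29 in the control. It was lower there with Activin A (-1.02, SE 0.09, 2.03-fold, adjusted p = 2.77e-05), with the combination (-0.98, adjusted p = 2.76e-05) and with Wnt3a (-0.53, adjusted p = 0.0103). The Wnt3a effect is opposite in sign to that on miR-30e (0.54). With Wnt3a, miR-30e* read 4.57 on replicate 1 against 4.84 and 4.91 on its group mates. The opposite strands were not examined without that array. At day 3 Activin A lowered miR-30e* (-0.63, adjusted p = 0.00238) where miR-30e was higher. The 2 strands of Mir30e thus moved in opposite directions in these 2 comparisons, and the difference between the strands was not tested. Of the other related rows, miR-30c-1* was detected on 17 arrays, miR-30c-2* and miR-384-5p, which shares the miR-30 seed, on 2 each, and miR-30b* and miR-26b* on none.

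**Figure D3:**
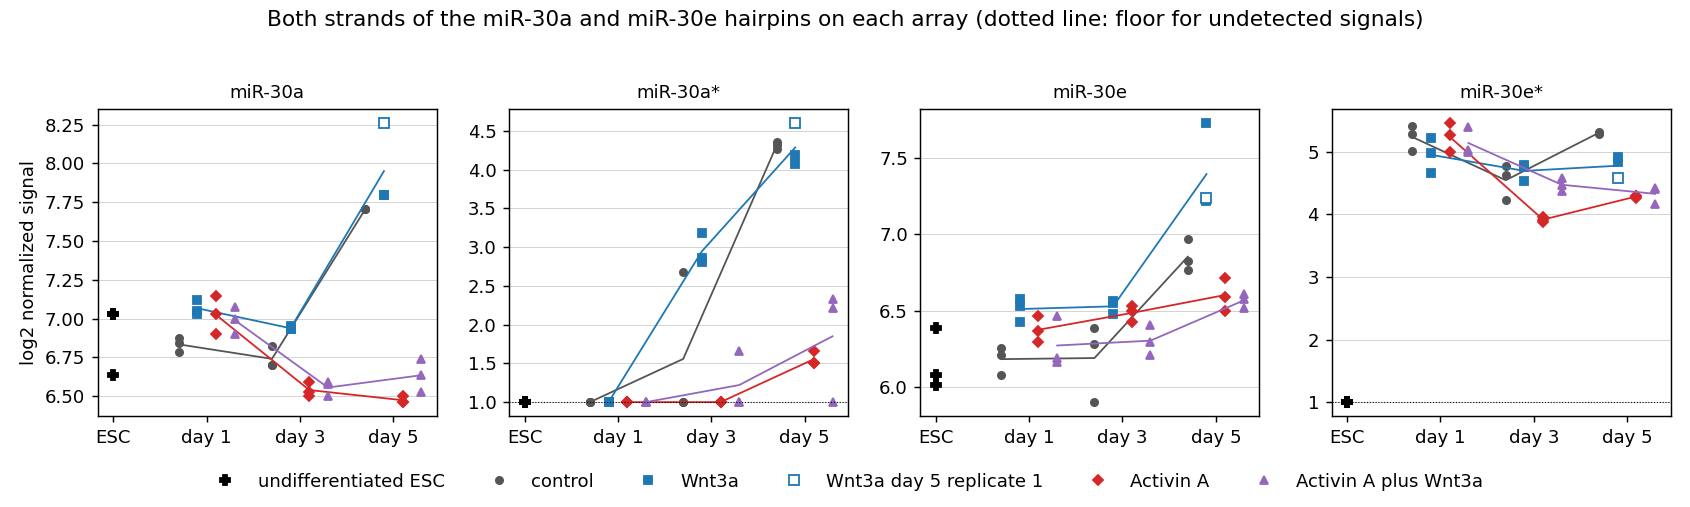
Normalized log2 level (vertical axis, log2 of signal) of miR-30a, miR-30a*, miR-30e and miR-30e* on each array against culture day (horizontal axis), colored by treatment, with a dotted line at the floor where undetected values stand. At day 5 the miR-30a* arrays of the control and Wnt3a groups sit between 4.07 and 4.60 and those of the 2 Activin A groups between 1.00 and 2.34.

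The profiles of the members were then set beside each other. Over the 13 group means, the Pearson correlation between 2 miR-30 members was 0.41 to 0.87 over the 10 pairs, that between miR-26a and miR-26b was 0.59, and that between a miR-30 and a miR-26 member -0.14 to 0.78. These are descriptions over groups that share slides, scan sessions and a normalization. miR-30a and miR-30e, the near-identical pair, correlated at 0.72. Among 160 miRNAs detected on at least 2 of 3 arrays in every group, the profiles closest to miR-30a were those of miR-720 (0.92) and miR-130a (0.82). For miR-30b they were miR-345-5p (0.94) and miR-107 (0.93), and for miR-30e miR-130a (0.88) and miR-345-5p (0.85). The profile closest to miR-30c was that of miR-26a (0.78), followed by miR-16 (0.77), and the profile closest to miR-26a was that of miR-30c, followed by miR-345-5p (0.71). miR-30d was most like miR-30c (0.87) and miR-345-5p (0.84), and miR-26b most like miR-337-3p (0.73) and miR-107 (0.70). Where the mean of Wnt3a day 5 was taken without replicate 1, a choice made after seeing the data, the correlations were 0.35 to 0.90 within miR-30, 0.71 within miR-26 and 0.20 to 0.81 between the families. The profile closest to miR-30c was then that of miR-140* (0.83), ahead of miR-26a (0.79), and the closest to miR-26b was that of miR-107 (0.88), followed by miR-345-5p (0.82). The second place went to miR-20a (0.84) for miR-30a and to miR-30b (0.85) for miR-30e, and the other members kept their 2 closest profiles.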

How the data were processed

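Total RNA of the 39 samples was labeled with Cy3 and hybridized to 1-color Agilent mouse miRNA arrays, and the authors extracted the scans with Agilent Feature Extraction, version 9.5.3.1 per the submitters' processing notes and 10.7.3.1 per the file headers. The deposited scanner files give, for each spot and miRNA, background-subtracted signal intensity values and detection flags. The total gene signal used here sums over the probes and spots of a miRNA (20 spots for each member, from 3 probes for miR-30a and 2 for the others) and stands at 0.1 where the file flags the miRNA as undetected. Median local background was 35 to 42 over the arrays. The deposited value table holds log2 values of the same arrays, and 18 of its 39 columns matched another array, so it served as an alternative only.

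From the scanner files, the total gene signals of the 39 arrays were quantile normalized with limma 3.58.1 under R 4.3.3, values under 2 were set to 2, and log2 was taken. miRNAs detected on at least 2 of 3 arrays of a group were tested with lmFit and eBayes and Benjamini-Hochberg adjustment over all miRNAs of the fit, at an adjusted p of 0.05. The control course, time within arms and differences between days came from a fit of all 39 arrays, and the treatments, the combination against Activin A and the interaction from fits of the 12 arrays of a day. Quantile normalization assumes equal signal distributions, which differ here in how many miRNAs are detected. The lowest detected normalized signal was 12.3 to 34.4 on ESC and day 1 arrays and 0.176 to 11.3 at days 3 and 5, and the number of arrays limits the precision. Alternatives covered the scaling, background correction, floor, filter, fit, slide (statmod 1.5.0 for a random slide), replicate number, the methods' ANOVA and t-tests and each array left out. In the fit of all 39 arrays the correlation within a slide was estimated at -0.0545. Calls kept there with the slide as a block therefore do not test an effect of slide. The code was tested on simulated data, with changes given to the Activin A arrays of each day. Of 30 changes of 0.5 log2 units, 26 were recovered at day 1, 25 at day 3 and 3 at day 5. Of 30 changes of 1 log2 unit, 30, 29 and 17 were recovered. A member that did not pass at day 5 may therefore still have changed.

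Groups came from the labels of each sample. The members and marker lists were chosen with earlier results of these data known. Named in the text were all 7 members, the opposite strands and miR-384-5p where the array holds them, the marker miRNAs, and the 2 miRNAs with the most similar profile for each member. Sequences and coordinates are from RefSeq tables of GRCm38.p6, and no genome was used here.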

Additional observations from a re-analysis of the deposited data

Results flagged for a closer look

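A treatment effect that differed between days 3 and 5 was found for 2 members in the fit of all arrays. For miR-30a the effect of Activin A was lower at day 5 than at day 3 by a log2 difference of -1.03 (SE 0.14, limma adjusted p = 1.06e-06), and that of Activin A plus Wnt3a by -0.89 (SE 0.14, adjusted p = 8.99e-06). For miR-30e the effect of Activin A differed by -0.55 (SE 0.17, adjusted p = 0.0198). Days 3 and 5 of the control and Activin A arms were scanned in different sessions, and each effect was taken against the control of its own day. The combination's arrays of day 3 were scanned in session 2 and their control of that day in session 1, so scan session cannot be told apart from the day 3 effect within the -0.89.

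The effect of Wnt3a differed with and without Activin A at day 3 for 2 members. The interaction was 0.37 (SE 0.11, adjusted p = 0.0442) for miR-30d and -0.52 (SE 0.16, adjusted p = 0.0437) for miR-30e, calls that held in 2 and 3 of 12 omissions of an array. In 1 fit of all arrays neither passed (adjusted p = 1 and 0.0644). The Activin A plus Wnt3a arrays of that day lay on a slide of their own among the day 3 arrays, which cannot be told apart from the combination. With the columns of the value table as named, the miR-30d interaction was -0.38 (adjusted p = 0.11).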

How the results depend on the processing

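Of 2478 member values under alternative settings, 2168 kept their direction and their side of the threshold, 118 lost a call, 85 gained a call, 16 reversed and 91 changed sign without a call. Counts below are of 7 members, or of 21 for the differences between days, and the cause of a change was not tested unless the construction of the setting shows it. Scaling to the 75th percentile of the miRNAs detected on all arrays gave 0 instead of 1 in the F-test of day 1 and, at day 5, 5 instead of 2 for the combination of Activin A and Wnt3a against its control. It turned miR-30a to 0.32 for control day 1 against ESC and to -0.10 for Wnt3a at day 1. It also moved the median of all miRNAs tested by over 0.1, reaching -0.19 and -0.20 for Activin A and the combination of day 5 and 1.08 in the control course from ESC to day 5, and the share of calls that were higher from 48.6% to 37.9%, from 46.5% to 31.5% and, for Wnt3a at day 1, from 50% to 17.2%. Scaling to the 75th percentile of all miRNAs gave 3 instead of 1 for control day 3 against day 1, 3 instead of 5 for control day 5 against day 3, 0 in the F-test of day 1, 1 instead of 3 for the combination against Activin A at day 3 and 0 instead of 1 for Wnt3a at day 5. Reversed values under it were -0.47 for miR-26a in control day 3 against day 1, -0.38 and -0.36 for miR-30e in day 3 against day 1 with Wnt3a and with Activin A, -0.10 for miR-30a with Wnt3a at day 1, -0.0039 for miR-30b and -0.20 for miR-30c with Wnt3a at day 3, and -0.055 for miR-30c in the combination against Activin A at day 3. Normexp background correction gave 5 in the F-test of day 1, 8 differences between days instead of 3, and -0.027 for miR-30d in the combination at day 5 against ESC.

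The count for Wnt3a at day 5 was 0 instead of 1 with the floor set before normalization, the value table as named or as matched to the scanner files, no filter, detection required on all 3 arrays, the slide as a block, the replicate number as a block, the methods' t-test, and quantile normalization of log2 values, the last chosen after seeing the data. With the value table as named or as matched, or the methods' t-test, the combination differed from Activin A at day 3 in 1 member instead of 3. The value table as named gave reversed values of -0.85 for the miR-30c interaction at day 1, of -0.12, -0.44 and -0.17 for miR-30c, miR-30d and miR-26b in the combination against Activin A at day 3 and of -0.38 for the miR-30d interaction at day 3, since it exchanges the 2 treatments. The methods' ANOVA and t-tests, on the arrays of a comparison alone, called 6 members for Activin A and 7 for the combination at day 5 instead of 2 and 2. With 1 fit of all arrays in place of fits by day, the counts were 2 instead of 6 and 5 instead of 3 in the F-tests of days 3 and 5, 0 instead of 3 for Wnt3a, 1 instead of 6 for Activin A, 1 instead of 4 for the combination and 0 instead of 3 for the combination against Activin A at day 3, and 2 for Wnt3a and 5 for the combination at day 5. The slide as a block gave 0 in the F-test of day 1, 1 instead of 2 for the combination at day 5, 5 differences between days and -0.072 for miR-30c with the combination at day 1. It could give no value for the combination at day 3, which shares no slide with that day.

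Leaving out 1 array at a time gave counts of 6 to 7 for the 13 groups, 2 to 4 for control day 1 against ESC, 1 for day 3 against day 1, 5 to 6 for day 5 against day 3, 7 for day 5 against ESC, 1 to 3, 5 to 7 and 3 to 6 in the F-tests of days 1, 3 and 5, 1 to 3 for Wnt3a, 5 to 6 for Activin A, 4 to 5 for the combination and 1 to 4 for the combination against Activin A at day 3, 0 to 2, 2 to 4, 2 to 5 and 0 for the same comparisons at day 5, and 2 to 8 differences between days. The highest day 5 counts for the Activin A conditions, and the 8, came without Wnt3a day 5 replicate 1. Without replicate 2 of that group the combination changed 4 members at day 5, and without replicate 3 there were 7 differences between days. Leaving out replicate 1 also turned miR-26b to 0.63 in Wnt3a day 5 against day 3 and miR-30d to -0.20 for Wnt3a at day 5. For miR-26b the same comparison gave -0.99 without Wnt3a day 5 replicate 3. At day 3 the count of 1 for the combination against Activin A came without combination replicate 2 or 3 or Activin A replicate 1 or 3.

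Samples with the same replicate number showed no steady tendency to deviate together. Over 18 pairs per day, the correlations of their deviations lay between -0.481 and 0.260 for day 1. They lay between -0.264 and 0.391 for day 3 and between -0.496 and 0.414 for day 5. Their medians were -0.07, 0.09 and -0.03 at days 1, 3 and 5, beside 0.04, 0.02 and -0.04 for different numbers. These values cannot show whether the number pairs cultures. With the replicate number as a block, the count for Wnt3a at day 5 was 0 and no other count moved by over 1.5 times. Detection limits miR-30d in ESC and at day 1, where 4 arrays did not detect it.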
